A study of Mus musculus with 6 samples.

Results

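A set of 9 genes of the blood-brain barrier and of brain endothelium was examined in coronal mouse brain sections, taken by their symbols: Cldn5, Flt1, Kdr, Pecam1, Slco1a4, Abcb1a, Mfsd2a, Slc2a1 and Vegfa. They were 9 of the 19465 genes measured, and each was found in all 6 sections. The sections came from male C57BL/6J mice, with 2 mice at postnatal day 21 (P21), 2 adult mice labelled 12 to 15 weeks old and 2 aged mice of 28 months, and each section was 1 mouse. No group carried a transgene or received a treatment, the P21 animals were bred from purchased C57BL/6J mice, and the aged animals came from the National Institute on Aging. The study's methods name only Jackson Laboratory as the source of its mice. The tissue was formalin-fixed and embedded in paraffin, and RNA was read with the Visium assay, in which gene probes are captured on a grid of barcoded spots that each cover a small patch of tissue holding several cells. The comparisons asked how these genes differed between P21 and adult brain, how they differed between aged and adult brain, and how they were spread over the anatomical zones of a section.

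The blood-brain barrier is formed by endothelial cells that seal the space between them with tight junctions, carry few transport vesicles, and move nutrients in and drugs out through dedicated membrane carriers. Pericytes and astrocyte end-feet surround these cells, and Wnt signals from the neural tissue keep them in the barrier state. Vascular endothelial growth factor (VEGF), made largely by astrocytes and other neural cells and raised by low oxygen, acts on receptors of the endothelium to drive vessel growth and permeability. Among the members, Cldn5 encodes claudin-5, the main tight junction claudin of brain endothelium, and Pecam1 encodes an adhesion molecule of the contacts between endothelial cells. Kdr (VEGFR2) is the main signalling receptor for VEGF, Flt1 (VEGFR1) binds the same ligand with high affinity and acts largely as a trap, and Vegfa is the ligand. Slc2a1 (GLUT1) carries glucose, Slco1a4 carries organic anions, Abcb1a (P-glycoprotein) pumps drugs out of the cell, and Mfsd2a carries lysophospholipids that hold docosahexaenoic acid and limits vesicle traffic across the endothelium.

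In the mm10 build with the GENCODE M21 annotation, all members were protein-coding genes. Cldn5 lay at chr16:18776847-18778262 on the plus strand, Flt1 at chr5:147561604-147726011 on the minus strand and Kdr at chr5:75932827-75978458 on the minus strand. Pecam1 lay at chr11:106654217-106750628 and Slco1a4 at chr6:141805440-141856199, both on the minus strand, and Abcb1a at chr5:8660077-8748575 on the plus strand. Mfsd2a lay at chr4:122946850-122961188 on the minus strand, Slc2a1 at chr4:119108711-119137983 on the plus strand and Vegfa at chr17:46016993-46032369 on the minus strand. The 250 bases before the RefSeq start (GRCm38.p6) are shown for the 5 members called between ages in a whole section or in a zone, by the test described below. Each run is written 5′ to 3′ in the direction of its gene, and capitals mark every match on either strand of 3 short motifs, the hypoxia response core ACGTG, the GC box GGGCGG and the ETS core GGAAG.
Cldn5, chr16:18776597-18776846, plus strand: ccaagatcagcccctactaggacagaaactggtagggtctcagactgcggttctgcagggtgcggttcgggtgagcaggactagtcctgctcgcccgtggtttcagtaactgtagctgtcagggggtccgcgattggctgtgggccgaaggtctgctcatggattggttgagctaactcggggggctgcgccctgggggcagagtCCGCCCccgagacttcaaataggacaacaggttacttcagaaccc
Flt1, chr5:147726012-147726261, minus strand: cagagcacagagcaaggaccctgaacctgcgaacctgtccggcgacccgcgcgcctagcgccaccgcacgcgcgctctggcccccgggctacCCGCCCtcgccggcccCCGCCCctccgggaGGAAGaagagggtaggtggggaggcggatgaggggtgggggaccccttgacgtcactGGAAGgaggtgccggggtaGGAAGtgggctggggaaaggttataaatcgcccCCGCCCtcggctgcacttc
Kdr, chr5:75978456-75978705, minus strand: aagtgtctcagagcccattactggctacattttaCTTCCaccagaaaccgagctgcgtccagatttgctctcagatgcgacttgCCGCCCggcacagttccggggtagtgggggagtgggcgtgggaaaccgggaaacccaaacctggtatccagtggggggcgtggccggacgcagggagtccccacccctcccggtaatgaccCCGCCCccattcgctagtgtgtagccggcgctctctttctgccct
Mfsd2a, chr4:122961189-122961438, minus strand: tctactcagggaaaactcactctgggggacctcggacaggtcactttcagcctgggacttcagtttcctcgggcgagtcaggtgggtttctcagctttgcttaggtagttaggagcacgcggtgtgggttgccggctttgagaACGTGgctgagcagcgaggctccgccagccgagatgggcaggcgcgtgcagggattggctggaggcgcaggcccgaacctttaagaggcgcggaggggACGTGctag
Vegfa, chr17:46032378-46032627, minus strand: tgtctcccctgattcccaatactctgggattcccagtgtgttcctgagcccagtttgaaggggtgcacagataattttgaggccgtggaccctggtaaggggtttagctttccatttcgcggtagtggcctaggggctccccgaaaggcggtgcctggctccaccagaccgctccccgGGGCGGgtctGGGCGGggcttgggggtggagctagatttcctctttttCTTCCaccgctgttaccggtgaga
Mfsd2a held 2 matches to ACGTG, 9 and 107 bases before the start, and no GC box or ETS core. The other printed windows held no ACGTG in this short stretch. The window of Slc2a1, which was not among the 5 called members and is not printed, held 1 ACGTG and 2 GC boxes. The RefSeq starts used for Kdr, Vegfa and Slc2a1 do not coincide with the GENCODE starts given above. Flt1 held 3 GC boxes and 3 ETS cores, Kdr and Vegfa 2 GC boxes and 1 ETS core each, and Cldn5 a single GC box. Of 27025 promoter windows of the same length, 16.6% held ACGTG, 32.9% GGGCGG and 63.6% GGAAG. A match here describes the sequence and is not evidence of a bound factor.

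The files held 20336 usable spots in all, 2917 to 3679 a section, and 42422997 to 106783660 UMIs (unique molecular identifiers, each counting 1 captured probe molecule) a section. Per section the members had between 400 and 16652 UMIs, and levels below are in CPM, where a gene's UMIs are divided by the total of the section or zone and multiplied by a constant. At least 1 UMI was found in 89.2% of spots for Slc2a1, 71.1% for Vegfa, 65.9% for Slco1a4, 59.1% for Cldn5, 53.3% for Flt1, 38.2% for Abcb1a, 27.1% for Mfsd2a, 26.1% for Kdr and 19.6% for Pecam1. Probes differ in yield between genes, so CPM values were compared between samples and not between genes. The aged sections stood apart by handling: the study's methods put them on a later slide version with transfer by instrument and an altered probe design, their file headers name Space Ranger 3.1.1 in place of 2.0.0, and they shared 0 spot barcodes with the other 4 sections, which shared 2607 to 2992 with each other as slides of one layout do. Age and this change of platform cannot be told apart in any comparison of aged with adult sections. The same holds for the separate source given for the aged animals. In spots, fewer endothelial cells and less RNA per endothelial cell cannot be told apart either. A gene was called changed at an adjusted p below 0.05 with a fold over 1.5. The test was edgeR's quasi-likelihood test on UMIs summed per section, with Benjamini-Hochberg adjustment over all genes tested. Every adjusted p below is from that method unless another is named. Fold changes come from the same fit, which rescales each section by a factor (TMM), while CPM levels are not rescaled. Whole-section factors were 0.96 to 0.98 in P21 and adult sections and 1.04 and 1.07 in aged ones. Whole-section log2 fold changes of aged over adult therefore lie below those of the printed CPM levels.

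Over whole sections the members called between P21 and adult brain were Kdr and Mfsd2a, both higher at P21. That made 2 of 9 members, where 5.09% of the 11153 genes tested were called and 3.08% were called higher. Between aged and adult brain 3 of 9 were called, with Cldn5 and Kdr lower and Mfsd2a higher in aged brain, where 9.2% of 11315 genes were called, 3.48% higher and 5.72% lower. By adjusted p alone 3 members passed at P21 and 6 in aged brain, where 29.1% and 54.8% of genes did. Both comparisons use the same 2 adult sections. The median log2 fold change of all genes tested was −0.03 for P21 and −0.12 for aged, and fold changes below are not corrected for it.

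Cldn5 fell in aged brain more than any other member. Its level was 96.2 and 103 CPM in the P21 sections, 72.9 and 66.4 CPM in the adult mice, and 30.7 and 27.8 CPM in the aged mice. The 3 ages did not overlap, and the order ran from P21 down to aged. The log2 fold change of aged over adult was −1.37 ± 0.086 (SE, n = 2 against 2, adjusted p = 2.18e-05, edgeR), or 2.59-fold lower on the rescaled counts of the fit. P21 over adult gave 0.51 ± 0.084 (adjusted p = 0.0026, edgeR), which passed on p but stayed under the fold limit, and without adult replicate 1 it was 0.60 and was called. Pecam1, the other gene of endothelial contacts, lay at 12.6 and 12.1 CPM at P21, 11.2 and 10.1 CPM in adults, and 11.2 and 11.2 CPM in aged brain. Neither Pecam1 comparison passed (log2 fold changes of 0.20 ± 0.094 at P21 and −0.05 ± 0.093 in aged brain, adjusted p of 0.133 and 0.676, edgeR).

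The receptors for VEGF went in opposite directions between adult and aged brain. Kdr was at 26.9 and 31.5 CPM at P21, 15.8 and 13.9 CPM in adults, and 9.62 and 8.95 CPM in aged brain, again with no overlap between ages. It was 1.95-fold higher at P21 (log2 0.96 ± 0.11, adjusted p = 0.000324, edgeR) and 1.74-fold lower in aged brain (log2 −0.80 ± 0.11, adjusted p = 0.000376, edgeR). Flt1 overlapped between P21 (38.2 and 39.8 CPM) and adult brain (38.1 and 39.2 CPM), with a log2 fold change of 0.00 ± 0.074, and stood at 61.1 and 56.1 CPM in the aged sections. The aged sections lay above all others, and the log2 fold change of 0.48 ± 0.073 passed on p (adjusted p = 0.00069, edgeR) but not on fold. Under plain CPM scaling and under DESeq2 the same comparison gave 0.60 and was called. Flt1 UMIs per Kdr UMI numbered 1.42 and 1.26 in the P21 mice, 2.40 and 2.83 in the adult mice, and 6.35 and 6.27 in the aged mice. Each gene has its own probes, so the size of this ratio has no meaning by itself. The aged sections had an altered probe design, so age and platform cannot be told apart in their ratio either.

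Mfsd2a was lowest in adult brain, below both younger and older mice. Its sections read 19.3 and 18.7 CPM at P21, 7.81 and 7.81 CPM in adults, and 23.5 and 20.2 CPM in aged brain. Both adult values lay far under the other 4. Relative to adult, P21 was 2.42-fold higher (log2 1.27 ± 0.11, adjusted p = 8.30e-05, edgeR) and aged was 2.58-fold higher (log2 1.37 ± 0.10, adjusted p = 4.08e-05, edgeR). Mfsd2a UMIs as a percent of Slc2a1 UMIs gave the same picture, with 11.5% and 10.6% at P21, against 4.93% and 5.35% for the adult mice and 14.5% and 12.97% for the aged mice.

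The other carriers were not called at either age. Slc2a1 was at 168 and 177 CPM at P21, 158 and 146 CPM in adults, and 162 and 156 CPM in aged brain, and neither comparison passed (log2 0.17 ± 0.062 with adjusted p = 0.0652 at P21, −0.06 ± 0.061 with adjusted p = 0.467 in aged brain, edgeR). Slco1a4 was at 71.6 and 76.4 CPM at P21, 68.3 and 64.5 CPM in adults, and 75.2 and 70.4 CPM in aged brain, with adjusted p of 0.183 and 0.911 (edgeR). Abcb1a was at 28.2 and 28.2 CPM at P21, 30.0 and 26.1 CPM in adults, and 25 and 24.1 CPM in aged brain. Its aged value passed on p and not on fold (log2 −0.31 ± 0.078, adjusted p = 0.00828, edgeR), and at P21 the log2 fold change was −0.00 ± 0.079 (adjusted p = 0.989). Among close relatives, Slco1c1, a thyroid hormone and organic anion carrier of barrier cells, went from 48.3 and 46.7 CPM in adults to 42.9 and 39.5 CPM in aged brain (log2 −0.33, adjusted p = 0.00419, edgeR, under the fold limit). Abcb1b, the second mouse P-glycoprotein gene, stayed between 2.87 and 4.32 CPM and Slco1a5 between 0.098 and 0.57 CPM in all 6 sections, too low to be tested.

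Vegfa, the ligand, was higher in aged than in adult sections without reaching the fold limit over whole sections. It was at 66.4 and 72.8 CPM at P21, 68.5 and 60.0 CPM in adults, and 113 and 91.9 CPM in aged brain. P21 and adult values overlapped (log2 0.10 ± 0.11, adjusted p = 0.528, edgeR), and both aged values lay above them (log2 0.55 ± 0.11, adjusted p = 0.00312, edgeR). Plain CPM scaling and DESeq2 each gave 0.67 for this aged change. Another set of scaling factors (RLE) and the sum of the 6 zones described below each gave 0.59. Vegfa was called in each of these cases. Without aged replicate 2 the aged value was 0.71, and without adult replicate 1 it was 0.64, both over the fold limit.

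**Figure D1:**
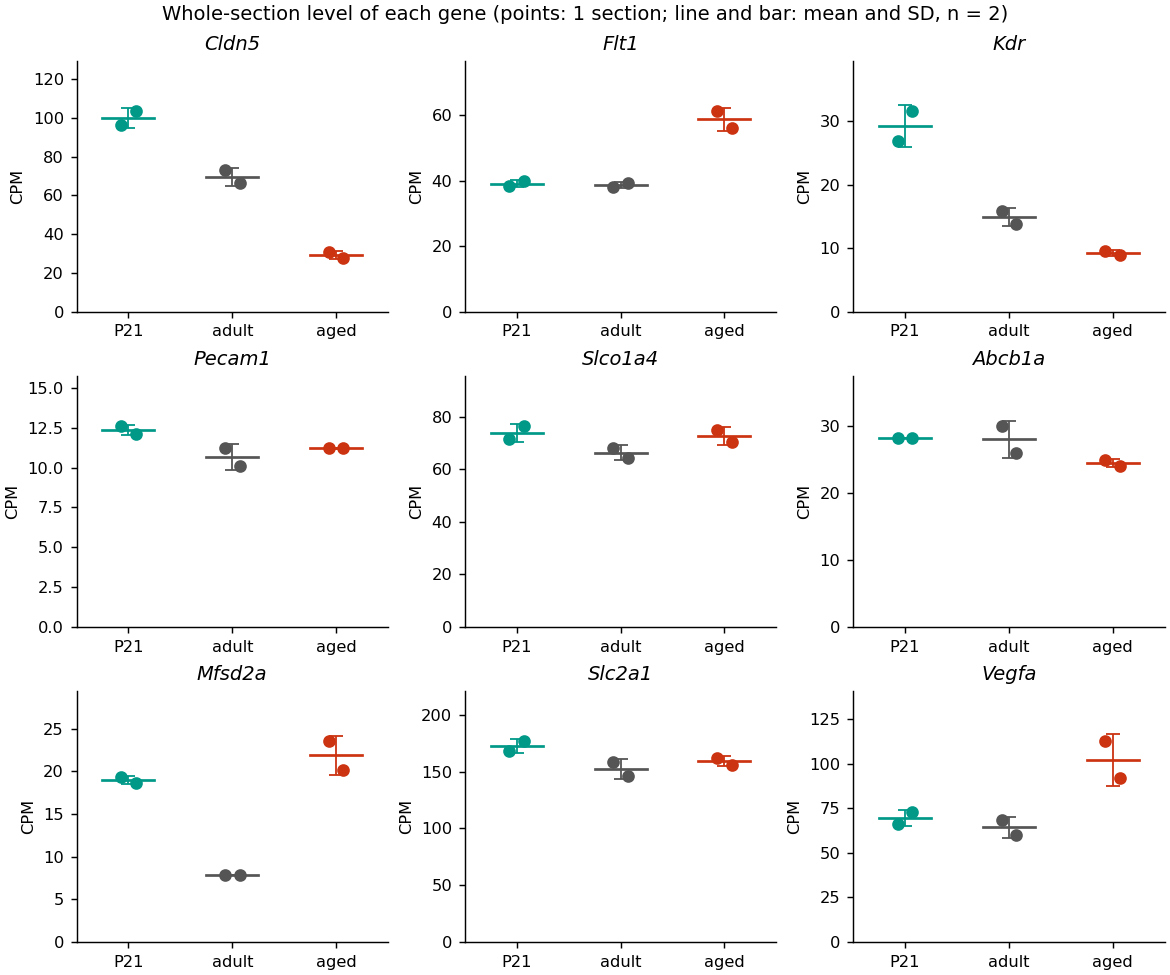
Level of each member (CPM, a panel per gene with its own axis) in the P21, adult and aged sections, with 1 point per section and a line and bar for the mean and SD (n = 2). Mfsd2a is lowest in adult sections (7.81 and 7.81 CPM), Cldn5 falls from P21 to aged (30.7 and 27.8 CPM), and Pecam1 stays between 10.1 and 12.6 CPM.

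The members moved in different directions, also when set against other endothelial RNA. A list of 28 other endothelial genes found in the files, such as Cdh5, Tek and Eng, summed to 673 and 716 CPM at P21, 569 and 547 CPM in adults, and 513 and 518 CPM in aged brain. Per 100 UMIs of this list, Cldn5 had 14.3 and 14.4 UMIs at P21, against 12.8 and 12.1 for the adult mice and 5.99 and 5.36 for the aged mice. Mfsd2a had 2.87 and 2.61 at P21, against 1.37 and 1.43 for the adult mice and 4.59 and 3.91 for the aged mice, and Flt1 went from 6.69 and 7.17 in adults to 11.9 and 10.8. Pecam1 lay between 1.69 and 2.18 on this scale, with both aged sections above all P21 and adult sections. With the fit scaled to these genes, Kdr in aged brain fell by 0.56 on the log2 scale and was no longer called, Flt1 and Vegfa rose by 0.72 and 0.79 and were called, and the calls of Cldn5 and Mfsd2a in aged brain and of Kdr and Mfsd2a at P21 stood over whole sections.

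**Figure D2:**
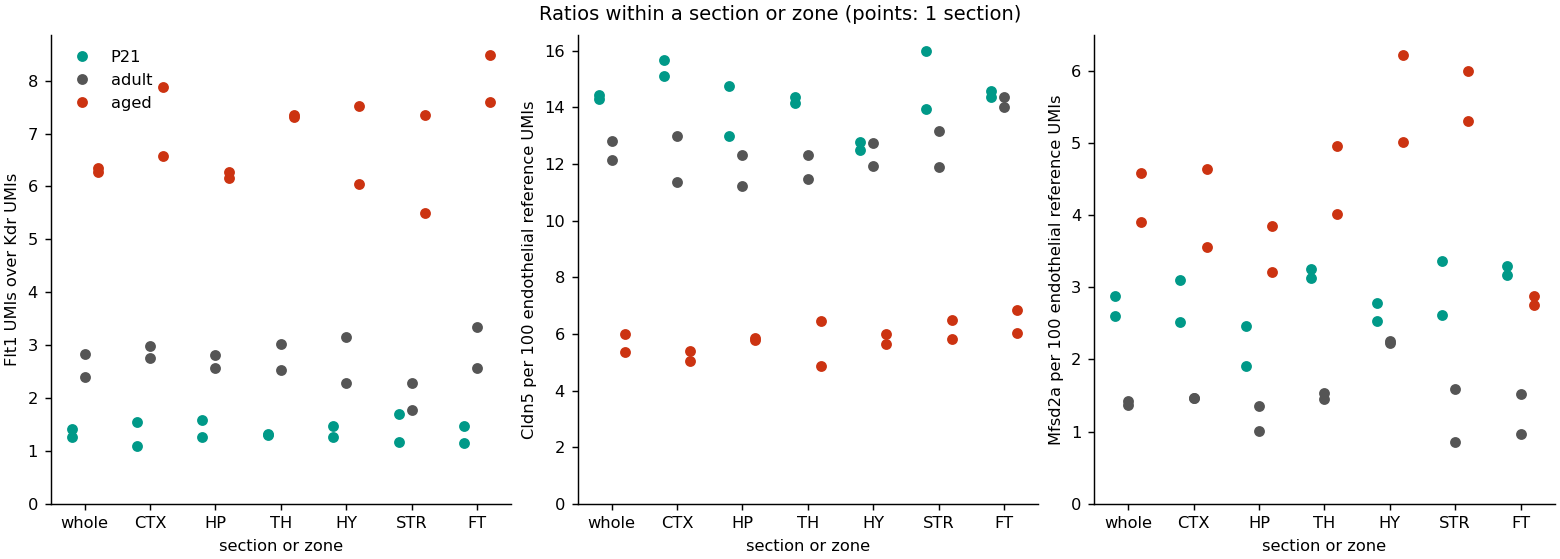
UMI ratios over whole sections and in each zone, with 1 point per section colored by age: Flt1 over Kdr (left), and Cldn5 (middle) and Mfsd2a (right) per 100 UMIs of the endothelial reference genes. Over whole sections, Flt1 UMIs per Kdr UMI are 1.26 to 1.42 at P21 and 6.27 to 6.35 in aged sections, and Cldn5 per 100 endothelial UMIs is 5.36 to 5.99 in aged sections against 12.1 to 12.8 in adults.

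Markers of other cell types were read beside these values. Red blood cell genes summed to 2267 and 1284 CPM at P21, 320 and 166 CPM in adults and 141 and 228 CPM in aged brain. Genes of oligodendrocytes, the myelin-forming cells, summed to 24880 and 26068 CPM at P21, 12715 and 12381 CPM in adults and 8189 and 8012 CPM in aged brain, with 7 of 8 higher at P21 and 5 of 8 lower in aged brain. Pericyte genes ranged from 171 to 187 CPM over the P21 and adult mice and were at 139 and 142 CPM in aged mice. Smooth muscle genes summed to 118 and 123 CPM in adults and 58.6 and 69.4 CPM in aged brain, and genes of meningeal fibroblasts to 128 and 92.8 CPM in adults and 71.5 and 65.1 CPM in aged brain. Astrocyte genes summed to 3780 and 3668 CPM in adults and, without overlap, to 4313 and 4005 CPM in aged brain, and microglia genes to 454 and 461 CPM against 560 and 528 CPM. Gene by gene these sums were not matched by calls. Of 10 astrocyte genes 1 was called higher and 1 lower in aged brain, and of 8 microglia genes none higher and 2 lower. The part of these shifts in the members' values was not tested.

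Spots were then assigned to zones from their expression. The members and the lists of endothelial, barrier, VEGF, hypoxia and pericyte genes were kept out of the clustering. Genes of smooth muscle, meningeal fibroblasts and red blood cells were not kept out. The zones tested were cortex (CTX, 4563 spots), hippocampus (HP, 1771), thalamus (TH, 3308), hypothalamus (HY, 3612), striatum (STR, 1138) and fiber tracts (FT, 2287). A zone of 1 section held 139 to 847 spots, and the members had between 10 and 4462 UMIs in it, the lowest being Mfsd2a in STR of adult replicate 2. Of 54 pairs of member and zone, 13 were called between P21 and adult, all higher at P21 and all from Cldn5, Kdr and Mfsd2a, where 3.75% of all tests of a gene in a zone were called higher. Between aged and adult 27 of 54 were called, 16 higher and 11 lower, where 6.7% of all such tests were called higher and 8.37% lower. The fiber tracts of the aged mice held a C4b- and Serpina3n-led cluster that had 0 to 2 spots in the other sections. It made up 277 of 433 FT spots in aged replicate 1 and 249 of 372 in aged replicate 2. Without adult replicate 2 the P21 count was 8, and without aged replicate 1 the aged count was 20.

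**Figure D3:**
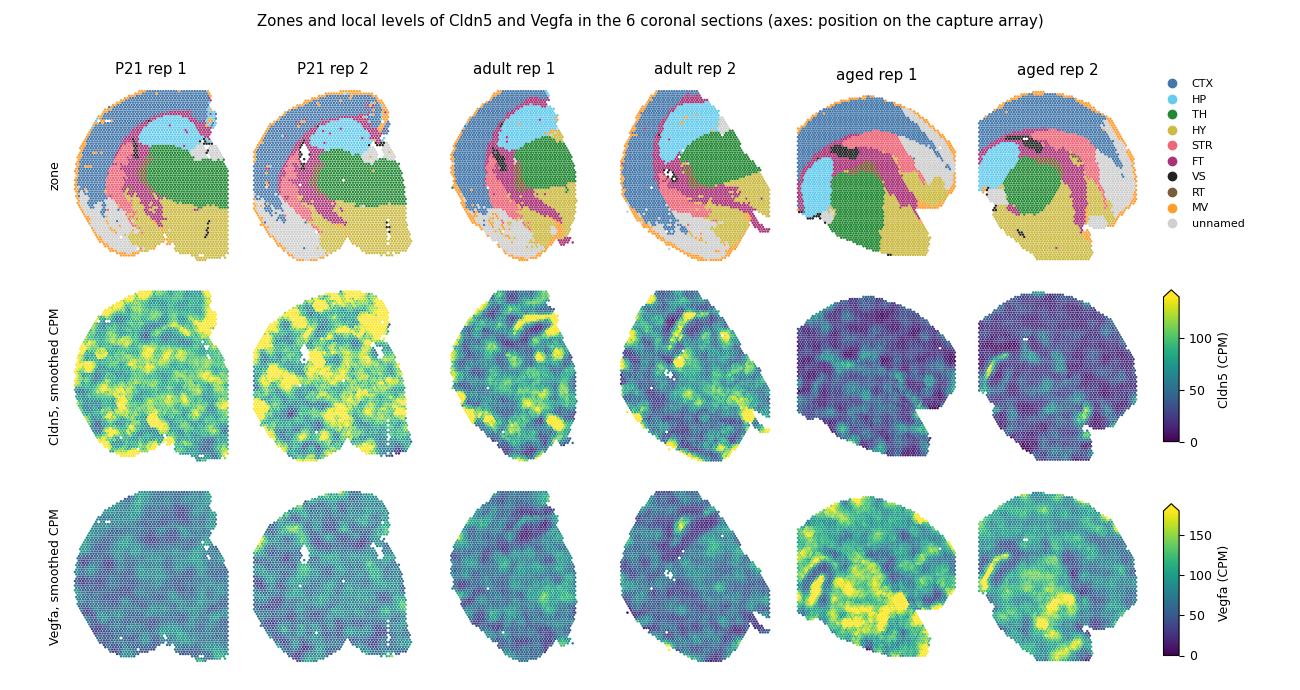
Maps of the 6 sections, each point a spot at its position on the capture array: zone (top row), and the locally smoothed level of Cldn5 (middle row) and Vegfa (bottom row) in CPM on 1 color scale per gene. The aged sections are the darkest for Cldn5 (27.8 and 30.7 CPM over the section) and the brightest for Vegfa (91.9 and 113 CPM).

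Cldn5 was lower in aged brain in all 6 zones, by a nearly even amount. Log2 fold changes of aged over adult ran from −1.21 in CTX to −1.10 in FT, and the aged and adult sections did not overlap in any zone. The zones come from the same mice, and with 2 sections an age a lack of overlap says little by itself. Pecam1, uncalled in every zone with all spots, also had no overlap in 4 of 6 zones. In CTX the Cldn5 level was 55.2 and 49.4 CPM in adults and 24.3 and 21.98 CPM in aged brain, and in FT it was 88.6 and 91.6 CPM against 47.3 and 41.6 CPM. The test of a difference in the change between zones gave adjusted p = 0.948 (edgeR). At P21 Cldn5 was called higher in CTX (85.8 and 94.4 CPM, log2 0.78, adjusted p = 0.00036), HP (0.62) and STR (0.68), passed on p alone in TH (0.50) and FT (0.43), and did not pass in HY (0.34, adjusted p = 0.0859, edgeR). The HP call was lost without P21 replicate 2 (0.50) or adult replicate 2 (0.47), and the STR call without P21 replicate 1 (0.55) or adult replicate 2 (0.57). Scaled to the endothelial reference genes, these P21 changes were 0.33 in CTX, 0.23 in HP and 0.27 in STR, and none was called. The difference of the P21 change between zones did not pass (adjusted p = 0.104, edgeR).

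Mfsd2a was called higher in aged brain in all 6 zones and higher at P21 in 5. The aged log2 fold changes ran from 1.19 in FT to 2.06 in STR, where adult sections had 8.22 and 4.07 CPM and aged sections 27.7 and 25.2 CPM. At P21 they were 1.40 in CTX, 1.32 in HP, 1.34 in TH, 1.72 in STR and 1.75 in FT. HY did not pass, at 0.55 (adjusted p = 0.0636, edgeR). With zones drawn from marker panel scores, HY was at 0.67 and was called (adjusted p = 0.0305, edgeR). Adult HY held 13.1 and 11.9 CPM, above the 4.07 to 9.97 CPM of the other adult zones, while P21 HY held 18.6 and 18.5 CPM. The P21 change of Mfsd2a differed between zones (adjusted p = 0.019, edgeR), where 13.3% of 11338 genes did, and no other member passed. This call was absent without P21 replicate 1, without P21 replicate 2 and without adult replicate 1, while 5 members passed without aged replicate 1 and 4 without aged replicate 2, Cldn5 among them both times. The calls of Mfsd2a in HP and STR at P21 were lost without P21 replicate 1 (1.12 and 1.45).

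Kdr was higher at P21 in 5 zones and lower in aged brain in 5. At P21 the log2 fold change was 1.31 in CTX (21.8 and 31.1 CPM against 10.0 and 10.7 CPM in adults), 1.05 in HP, 0.83 in TH, 0.98 in HY and 1.08 in FT, and STR was at 0.61 without passing (adjusted p = 0.121, edgeR). With zones drawn from marker panel scores, STR was at 0.90 and was called (adjusted p = 0.0131, edgeR). In aged brain it was −0.63 in HP, −0.88 in TH, −0.75 in HY, −0.79 in STR and −0.62 in FT, and CTX, at −0.53, passed on p alone (adjusted p = 0.0299, edgeR). Aged and adult sections did not overlap in any zone, which says little by itself with 2 sections an age. The aged range over zones was 6.79 to 11.5 CPM. The P21 calls in HP, TH and HY were lost without adult replicate 2 (adjusted p of 0.0532, 0.0697 and 0.0601), that in TH also without P21 replicate 2 (0.0558) and that in HY also without either P21 replicate (0.126 and 0.130, edgeR). The aged calls in HP, HY and FT were lost without adult replicate 1 (adjusted p of 0.118, 0.122 and 0.0923), those in HP and STR without adult replicate 2 (0.169 and 0.196), those in HP and HY without aged replicate 2 (0.0836 and 0.0733) and that in STR without aged replicate 1 (0.0831, edgeR), while FT then fell under the fold limit (−0.55). The FT value was −0.41 and not called without the C4b-led cluster, and the HP call was lost when scaled to the endothelial reference genes (−0.46) and when all sections were thinned to the lowest total (−0.38). DESeq2 did not call the aged change in HP, STR or FT (adjusted p of 0.126, 0.0923 and 0.133, DESeq2). Plain CPM scaling put FT under the fold limit (−0.54). In spots with only their own zone around them, HP (−0.66) and FT (−0.67) were not called, while CTX was (−0.61).

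Flt1 and Vegfa, the decoy receptor and the ligand, were called higher in aged brain in 5 zones each. For Flt1 these were CTX (30.0 and 29.4 CPM in adults, 53.5 and 50.9 CPM in aged brain, log2 0.78), HP (0.59), HY (0.61), STR (0.87) and FT (0.83), and TH, at 0.52, passed on p alone (adjusted p = 0.0166, edgeR). The HP call was at the edge of the fold limit and was lost without adult replicate 1 (0.49), aged replicate 1 (0.51) or either P21 replicate (0.57 in both cases), and the HY call without adult replicate 1 (0.56). With all sections thinned to the lowest total of UMIs, Flt1 in STR was at 0.46 (adjusted p = 0.0798, edgeR) and in HY at 0.57, and neither was called. No zone passed for Flt1 between P21 and adult. For Vegfa the called zones were CTX (0.70), HP (1.03), TH (0.73), HY (0.61) and STR (0.60), and FT, at 0.36, passed on p alone (adjusted p = 0.0169, edgeR). In HP Vegfa had 41.0 and 38.5 CPM in adults and 91.5 and 68.0 CPM in aged brain. Without aged replicate 1, Vegfa was under the fold limit in CTX (0.55), TH (0.55), HY (0.57) and STR (0.53), and it stayed called in HP. Without adult replicate 2 it was under the limit in HY (0.45) and STR (0.55). The aged change of Vegfa differed between zones (adjusted p = 0.00934, edgeR), but so did that of 50.5% of all 11338 genes, and the call was absent without FT and without adult replicate 1.

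Pecam1 and Abcb1a passed in no zone in either comparison when all spots of a zone were used. In core spots of FT, those with only FT spots around them, Pecam1 was called higher in aged brain (0.91, adjusted p = 0.0146, against 0.28 in all FT spots) and so was Slco1a4 (0.63, edgeR). Slco1a4 and Slc2a1 passed on p alone in CTX at P21 (0.33 each, with adjusted p of 0.0266 and 0.0142) and in FT in aged brain (0.38 and 0.34, adjusted p of 0.000698 and 0.00141, edgeR). In aged FT the levels were 119 and 109 CPM against 84.0 and 80.8 CPM in adults for Slco1a4, and 289 and 272 CPM against 216 and 204 CPM for Slc2a1. The members' aged changes in FT stood beside a zone in which 9.69% of genes were called higher and 19.5% lower. Of 8 microglia genes, 6 were called higher in aged FT and none lower (list median 1.17), as were 3 of 10 astrocyte genes, Gfap most (659 and 728 CPM in adults, 2683 and 2923 CPM in aged brain). Neuron genes went the other way, with 5 of 8 called lower in aged FT and none higher (list median −0.82). The part of these shifts in the members' values was not tested.

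**Figure D4:**
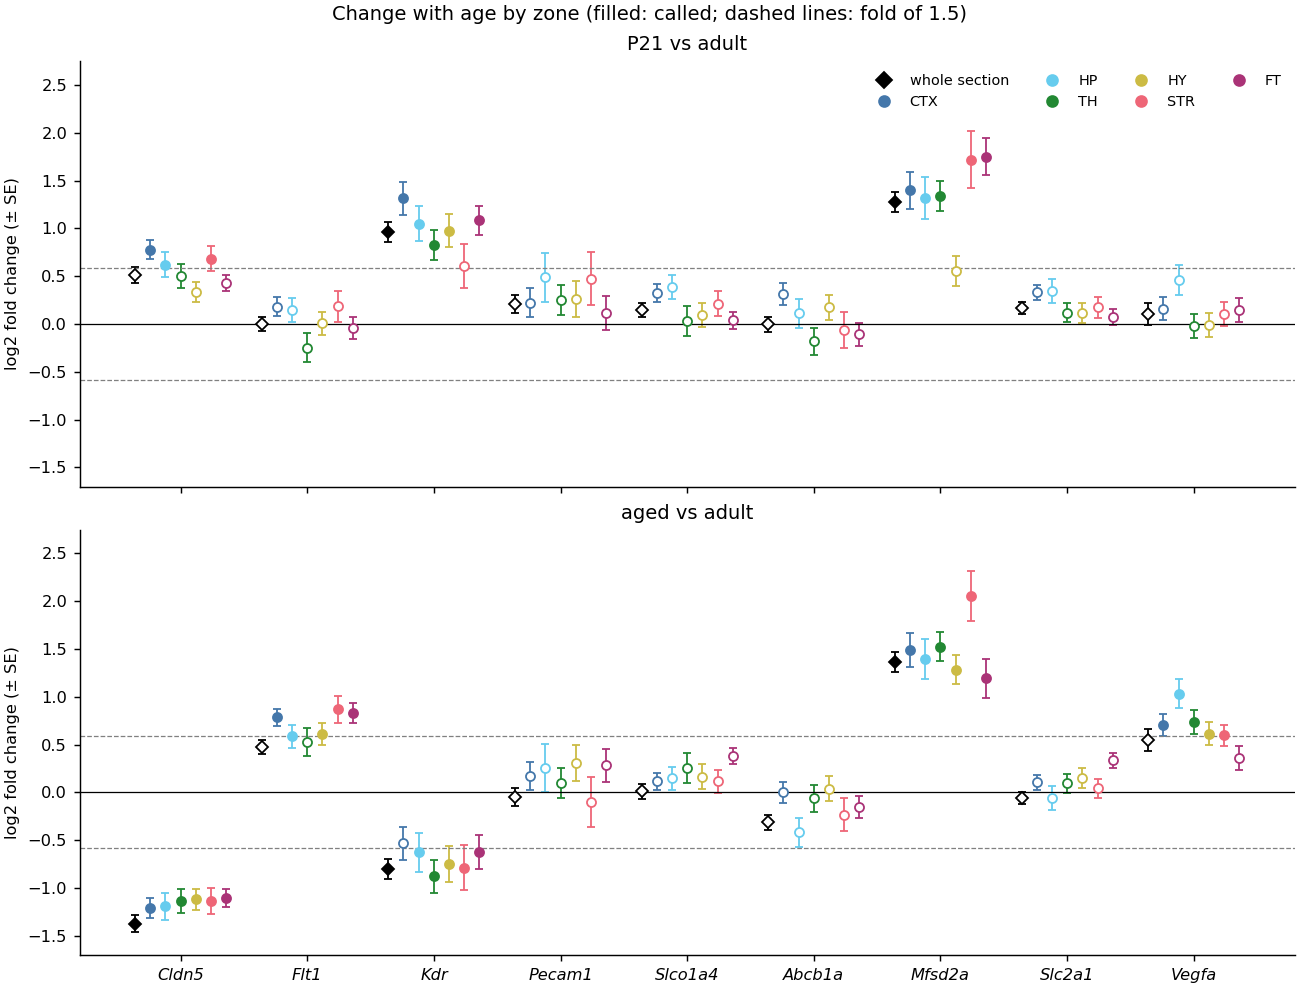
Log2 fold change of each member against adult brain in the 6 zones and over whole sections, P21 and aged in separate panels, with bars of 1 SE from the edgeR fit, filled points for called pairs and dashed lines at a fold of 1.5. Cldn5 in aged brain lies between −1.21 and −1.10 in every zone, while Mfsd2a at P21 is smallest in HY (0.55).

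Among the 6 tested zones of a section, all members were higher in TH and lower in HP than in the mean of the other zones, and all but Mfsd2a and Vegfa were higher in FT. Each zone was set against the mean of the other 5 in the same section. The values ran from −0.61 to −0.23 on the log2 scale in HP and from 0.23 to 0.40 in TH, all 9 at adjusted p below 0.05 in both, and 7 members passed as lower in CTX, where Kdr (−0.23) was as low as in HP. In all, 34 of 54 pairs passed on p, where 58.9% of all such tests did, so that passing here was not particular to the members. With the fold limit 3 were called: Slc2a1 higher in FT (0.62, higher in 6 of 6 sections), Pecam1 higher in FT (0.62, higher in 6 of 6 sections) and Mfsd2a lower in HP (−0.61, lower in 6 of 6 sections), with adjusted p of 5.03e-11, 8.89e-08 and 0.000232 (edgeR). In FT 11.5% of genes were called higher, and in HP 9.19% were called lower. The Slc2a1 call was lost without aged replicate 2 and the Pecam1 call without adult replicate 2, and both were lost without the C4b-led cluster.

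Mfsd2a and Vegfa had their own order of zones. Over all ages together Mfsd2a was higher in HY (0.33, adjusted p = 0.0185, edgeR) and not in FT (0.09, adjusted p = 0.506). Its HY value was above the mean of the other zones in 4 of 6 sections. The ages differed in this order. At P21 the mean level was 26.0 CPM in FT and 18.5 CPM in HY. In adults it was 7.94 CPM in FT and 12.5 CPM in HY, and in aged brain 19.4 and 31.7 CPM. Among the tested zones Vegfa was highest in TH (0.40, higher in 6 of 6 sections) and lowest in HP (−0.41, lower in 6 of 6 sections), and did not pass in CTX (0.10) or FT (−0.03). Scaled to the endothelial reference genes of each zone, none of the 54 pairs was called, and Cldn5 and Slc2a1 in TH turned to −0.05 and −0.01.

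**Figure D5:**
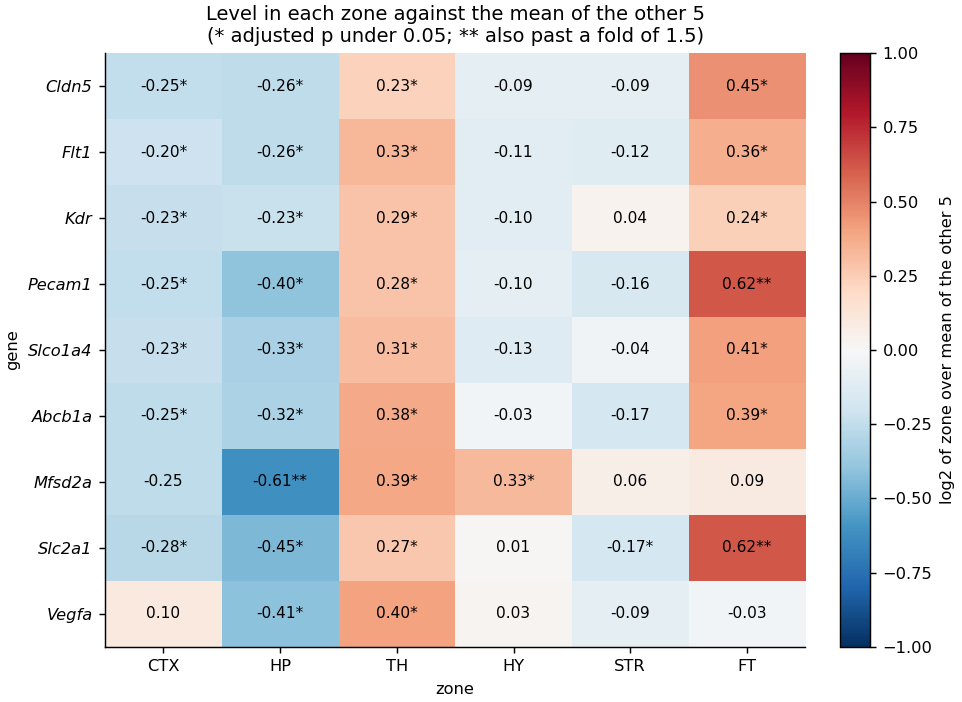
Log2 difference of each member in 1 zone from the mean of the other 5, as a colored grid of genes (rows) and zones (columns) from the edgeR fit, with 1 star for an adjusted p under 0.05 and a second for a fold over 1.5. All members lie above 0 in TH and below 0 in HP, and the largest values are Slc2a1 and Pecam1 in FT (0.62 each).

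A cluster led by genes of the meninges and of large vessels (Ptgds, Fmod, Acta2, Tagln, Igf2), with 126 to 176 spots a section, is given by its values without a test. It was named by a panel of smooth muscle and meningeal genes, which were not kept out of the clustering. For 8 of the 9 members, all but Mfsd2a, the mean level of adult sections was higher there than in TH or FT, as with Vegfa at 97.1 ± 2.49 CPM (SD, n = 2) against 75.7 ± 3.11 CPM in TH. Cldn5 there was 294 and 326 CPM at P21, 251 and 228 CPM in adults and 73.5 and 108 CPM in aged brain. In the same cluster Flt1 ran from 84.8 to 105 CPM at the younger ages and reached 139 and 191 CPM in aged brain. Mfsd2a was 24.1 and 36.1 CPM at P21, 6.13 and 3.89 CPM in adults and 36.4 and 38.6 CPM in aged brain, so the adult sections were again lowest. In the ventricular zone, led by the choroid plexus gene Ttr and with 13 to 69 spots a section, Slc2a1 was 351 and 362 CPM at P21, 265 and 265 CPM in adults and 327 and 373 CPM in aged brain. Flt1 UMIs per Kdr UMI there ran from 0.80 to 1.05 in the younger groups, against 2.89 and 2.20 in aged brain.

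Across spots, the gene whose pattern was most like the summed UMIs of the 8 members other than Vegfa was Ptprb, the endothelial receptor phosphatase that acts on Tie2, with a mean Pearson r of 0.44 (0.32 to 0.52) over the 6 sections, taken on Pearson residuals of the UMIs over spots, among 11329 genes. It was followed by Pltp (0.42), a phospholipid transfer protein, Epas1 (0.42), a hypoxia-inducible factor of endothelium, Vwf (0.41), the von Willebrand factor of endothelial cells, and Itm2a (0.40). Among the nearest to Vegfa were the astrocyte genes Aldoc (0.17) and Gpr37l1 (0.16). Among the 7 endothelial members other than Mfsd2a, pairs had mean r between 0.08 and 0.32, the highest being Cldn5 with Slc2a1 (0.32) and Cldn5 with Slco1a4 (0.31). Mfsd2a reached 0.07 at most with any of them and Vegfa 0.08. Spots share a library and the members differ in UMI counts, so that these values are descriptions. Low counts by themselves lower r, and their part here was not tested. Pecam1 and Kdr, found in 19.6% and 26.1% of spots, had mean r of 0.23 and 0.17 with Cldn5. Mfsd2a, found in 27.1% of spots, had 0.06 with Cldn5.

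Other genes of barrier endothelium were counted by list over whole sections. Of 24 endothelial reference genes tested, 3 were called higher at P21 and none lower (list median log2 0.29, all genes −0.03), the largest being Ctla2a, a protease inhibitor gene, with 12.1 and 15.8 CPM against 7.56 and 7.05 CPM in adults (0.91). In aged brain 1 was higher, again Ctla2a (0.61), and 6 were lower: Cd93 (−1.34), Tek (−1.15), Cdh5 (−0.98), Itm2a (−0.97), Clec14a (−0.82) and Ptprb (−0.77), with a list median of −0.20 against −0.12 for all genes. Cd93, an endothelial surface glycoprotein, had 11.5 and 9.25 CPM in adults and 4.61 and 4.31 CPM in aged brain, and Cdh5, the cadherin of endothelial contacts, 16.9 and 15.4 CPM against 8.68 and 9.09 CPM. Of the tight junction genes other than Cldn5, none of 10 was called at P21 and 1 of 11 was lower in aged brain, Cgnl1 (paracingulin, −0.72). Of 7 vesicle and fenestra genes, none was called at P21 and Cavin3, a caveolar coat gene, was lower in aged brain (−0.62). In aged FT 4 of the 7 were called higher and none lower, among them Cav1, which forms caveolae, with 17.0 and 22.4 CPM in adults and 38.8 and 36.3 CPM in aged brain. Aged HP went the other way, with 2 of the 7 called lower and none higher, and Cav1 fell most there. In aged STR 1 was called higher and none lower. Most aged FT spots belonged to the C4b-led cluster, and its part in the FT calls of this list was not tested.

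Of 18 other carriers and receptors of the barrier, 1 was higher at P21, the nucleoside carrier Slc29a1 (0.68), and 4 were lower in aged brain. These were the organic anion carrier Slc22a8 (29.7 and 22.3 CPM in adults, 13.6 and 13.6 CPM in aged brain, −1.06), the iron exporter Slc40a1 (−0.74), the transferrin receptor Tfrc (−0.66) and the taurine carrier Slc6a6 (−0.61). The list median in aged brain was −0.30. Of 15 genes of the Wnt signal that keeps the barrier, 2 were higher at P21, the largest being the Wnt target Apcdd1 (39.4 and 39.3 CPM against 22.8 and 20.9 CPM in adults, 0.84). In aged brain the receptor Fzd6 was lower (19.3 and 19.5 CPM in adults, 10.7 and 10.7 CPM in aged brain, −0.98).

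Of 10 other genes of VEGF and angiopoietin signalling, none was called at P21. In aged brain Angpt1, the Tie2 ligand, was higher (8.65 and 8.26 CPM in adults, 17.4 and 18.8 CPM in aged brain), as was the VEGF co-receptor Nrp1 (0.62), and the ligand Vegfc was lower (8.11 and 7.94 CPM in adults, 4.0 and 3.85 CPM in aged brain, −1.16). Of 11 hypoxia target genes other than Vegfa, 4 were higher in aged brain and none lower, with a list median of 0.18. They were Hif3a (5.12 and 4.02 CPM in adults, 14.0 and 19.4 CPM in aged brain, 1.74), Adm, the vasodilator adrenomedullin (0.98), the collagen hydroxylase P4ha1 (0.91) and the glycolytic regulator Pfkfb3 (0.61). At P21 the same list had 2 higher and 1 lower of 10, with Hif3a at 0.73 and Ndrg1 at −0.63.

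Mural and other cells of the vessel wall were counted the same way. Of 9 pericyte genes none was called at P21 and 4 were lower in aged brain (list median −0.57), Vtn most (34.5 and 28.7 CPM in adults, 17.2 and 19.0 CPM in aged brain, −0.92). All 4 smooth muscle genes tested were lower in aged brain (list median −0.98), Tagln most (−1.33), and 1, Tpm2, was lower at P21 (−0.63). Of 9 genes of arterial, venous and activated endothelium none was called at P21 and the arterial ligand Sema3g was lower in aged brain (−0.61). Of the meningeal fibroblast genes, 3 of 6 were higher at P21, Col3a1 most (22.5 and 22.2 CPM against 4.72 and 4.23 CPM in adults, 2.31), with Aebp1 lower (−0.81), and 4 of 5 were lower in aged brain, Col1a1 most (−1.46). All 3 red blood cell genes tested were higher at P21, Hbb-bt most (3.02), and none was called in aged brain. The 2 choroid plexus genes tested were not called in either comparison.

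Neural cell lists gave the surroundings of the vessels. Of 10 astrocyte genes none was called at P21, and in aged brain Gfap, the intermediate filament of reactive astrocytes, was higher (227 and 234 CPM in adults, 446 and 416 CPM in aged brain, 0.78) and the gap junction gene Gja1 lower (−0.65). Of 8 oligodendrocyte genes Mag fell most in aged brain (−1.11). Of 8 neuron genes none was called at P21, and in aged brain Syt1 was higher (0.87) and Stmn2 lower (−0.80). Of 8 microglia genes none was called at P21, and 2 were lower in aged brain over whole sections, P2ry12 most (−0.73), with a list median of 0.05 against −0.12 for all genes.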

How the data were processed

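RNA was measured in 6 coronal sections of formalin-fixed mouse brain, 2 mice per age. The authors aligned probe reads to mm10 with Space Ranger. The file headers give version 2.0.0 for P21 and adult and 3.1.1 for aged samples, and the submitters' processing notes name 2.1.0. The authors deposited raw UMI counts per gene and spot, unnormalized, for spots over tissue, and the Moran's I score of each gene that Space Ranger wrote per section, with the scaling behind it not stated. Reads of near-identical genes are told apart only as far as the probes allow.

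Here, spots with under 250 genes or under 500 UMIs were left out (12 spots). Spots were clustered without Harmony on 3000 variable genes, with 154 member, vascular and other list genes kept out, by 10 principal components, 20 neighbours and the Leiden method (resolution 0.5, 17 clusters), and clusters were named from regional marker panels. Clusters led by Lypd1 and Lmo3 and by Gpr151 stayed unnamed. UMIs were summed per section or zone, since sections and not spots are replicates, and tested with edgeR 4.0.16 in R 4.3.3 (TMM factors, quasi-likelihood). Genes tested passed filterByExpr and were found in over 10% of the zone's spots at either age and 10% of all spots. All 9 members passed in each comparison. Models of all zones held the section as a block. DESeq2 1.42.0, other scalings, filters and zone rules, and leaving out each section were alternatives. The edgeR fits of age and of zones were tested on simulated counts, and the other steps were not. Counts limit precision by sampling, and PCR duplicates were removed through UMIs.

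The members and the lists were chosen with earlier results of these data known. Named genes are the members, 3 relatives, the most raised and lowered called gene of each list, and the genes nearest in spot pattern. Some genes that this rule names are not reported here. Other called list genes were named after their values were seen. Replicate numbers did not pair the sections.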

Additional observations from a re-analysis of the deposited data

Results flagged for a closer look

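The change of 2 members with age differed between the 6 zones by an interaction test with the section as a block (edgeR, adjusted over 11338 genes). For Mfsd2a between P21 and adult the adjusted p was 0.019, with log2 fold changes from 0.55 in HY to 1.75 in FT. For Vegfa between aged and adult the adjusted p was 0.00934, with log2 fold changes from 0.36 in FT to 1.03 in HP. In the first comparison 13.3% of genes passed the same test and in the second 50.5%. The first call was lost without P21 replicate 1, P21 replicate 2 or adult replicate 1, and the second without adult replicate 1 and without FT.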

How the results depend on the processing

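Whole-section counts of members called were 2 for P21 and 3 for aged, and leaving out each section gave 2 to 3 and 3 to 4. The aged count was 5 under plain CPM scaling, 5 under DESeq2 and 6 with no fold limit. Pairs of member and zone called were 13 for P21, 8 to 13 on leaving out each section (8 without adult replicate 2), and 27 for aged, 20 to 27 on leaving out each section. Members with a zone-by-age interaction at P21 were 1, but 0 with zones from marker panel scores, 2 after thinning to the lowest total, and 0 to 5 on leaving out each section (5 without aged replicate 1, 4 without aged replicate 2). In aged brain they were 1, but 2 with RLE factors, 2 with plain CPM, 0 after thinning, 0 without FT, and 1 to 4 on leaving out each section (4 without aged replicate 2), and DESeq2's 1 was Slc2a1 in place of Vegfa. Pairs called between zones were 3, but 34 with no fold limit, 5 in core spots, 1 with zones from panel scores, 0 when scaled to the endothelial reference genes, 1 without FT, 1 without the C4b-led cluster of FT, an alternative chosen after seeing the data, and 2 to 3 on leaving out each section. Scaling to the endothelial reference genes turned 6 single values: Slco1a4 (−0.12) and Slc2a1 (−0.11) in CTX at P21, and, between zones, Flt1 in CTX (0.0096), Cldn5 in TH (−0.047), Slc2a1 in TH (−0.010) and Kdr in FT (−0.078). This scale takes out endothelial RNA by construction. With the replicate number as a block the counts were 2, 3, 13 and 27, so the block changed none of these. Same-numbered sections had deviations that correlated at 0.15, −0.14 and −0.41, so the numbers do not pair them. Of 3375 single values recomputed, 145 changed sign where the adjusted p had been 0.05 or more. The alternative with all deposited spots was run for whole sections only.

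With 2 mice per age the spread between mice is poorly known, and low members limit the zones most, since Mfsd2a had 10 UMIs in one adult striatum.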

Other observations

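Spatial clustering of the members is given as Moran's I, a score of how alike neighboring spots are, as Space Ranger wrote it into the deposited files. Slc2a1 was the most clustered member in each section, with values of 0.063 to 0.21 and a rank above 81.9% to 87.4% of genes of the section. Vegfa was at 0.012 to 0.040 in the P21 and adult sections and at 0.12 and 0.13 in the aged ones. Its rank went from 51.0% to 73.7% of genes in the former to 81.7% and 79.2% in the latter. Flt1 had 0.020 to 0.029 in the younger mice, a rank of 57.4% to 71.0%, and 0.087 and 0.11 in the aged mice, a rank of 76.6% and 76.4%. Cldn5 was at 0.044 and 0.085 in aged sections and 0.036 to 0.060 in the others, while by rank it was lower in aged sections (64.4% and 72.6%) than in the others (73.1% to 80.7%). Mfsd2a was lowest in the adult sections, at 0.0031 and 0.011. The aged scores come from another Space Ranger version and slide type, so that age and platform cannot be told apart here either.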
